A study of Homo sapiens with 12 samples.

Results

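The 38 autophagy and lysosome genes described here were selected by symbol from the 57905 genes of the deposited expression table. They comprised 3 autophagy receptors, 5 members of the ATG8 family, 7 initiation and nucleation factors, 6 conjugation factors, 2 transcription factors of lysosome genes, 4 lysosomal membrane proteins, 7 lumenal proteins and 4 subunits of the vacuolar proton pump. RNA came from MDA-MB-231, an established human triple-negative breast cancer line with mesenchymal features. Cells received vehicle (DMSO with water), 1 µM SFN, 0.5 µM ZA or 1 µM SFN with 0.5 µM ZA (SFN+ZA). Exposure lasted 48 h in all 4 groups, with 3 libraries in each. Only short forms are given by the labels. SFN usually stands for sulforaphane, an electrophile from crucifers and inducer of the NRF2 response, and ZA for zoledronic acid, a bisphosphonate inhibitor of farnesyl diphosphate synthase. The series asked which transcripts either agent or the pair alters. Dishes were plated in triplicate, so the tests measure the spread between these dishes, which may be technical, in 1 cell line.

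Autophagy encloses cytoplasm in a double membrane, the autophagosome, which fuses with the lysosome for degradation. The ULK1 complex and a lipid kinase complex that contains BECN1 start the membrane, ATG7, ATG3 and the ATG12-ATG5-ATG16L1 complex attach ATG8 proteins to its lipids, and receptors such as SQSTM1 bind both cargo and ATG8 proteins. The lysosome is acidified by the V-ATPase, and many of its genes are bound by TFEB and TFE3 at the CLEAR element, a palindromic E-box.

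Promoters are shown first because 2 of the genes encode the factors that read the CLEAR element and many of the others encode lysosomal proteins. RefSeq promoters, covering 250 bases before to 50 bases after the annotated start on GRCh38.p14, were matched for 31 of the 38 genes. The CLEAR core TCACGTGA, which reads the same on both strands, occurred in 5 of these 31 promoters (16.1%), against 1.04% of all 27305 promoters. The 5 promoters are printed in the sense direction of the gene, in lower case with each CLEAR core in capitals, from 40 bases before the first core to the annotated start or to the end of the core.
ATG3 (chr3:112561951-112561998, minus strand): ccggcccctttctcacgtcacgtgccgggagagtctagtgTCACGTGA
LAMP1 (chr13:113297170-113297244, plus strand): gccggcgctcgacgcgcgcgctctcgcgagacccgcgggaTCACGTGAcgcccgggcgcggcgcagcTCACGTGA
ATP6V0D1 (chr16:67481158-67481257, minus strand): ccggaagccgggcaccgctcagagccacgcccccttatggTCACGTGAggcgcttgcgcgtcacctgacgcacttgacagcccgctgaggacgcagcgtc
GAA (chr17:80101464-80101580, plus strand): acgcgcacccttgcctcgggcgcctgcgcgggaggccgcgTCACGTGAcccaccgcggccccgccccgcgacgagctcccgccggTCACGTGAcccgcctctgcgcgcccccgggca
MCOLN1 (chr19:7522542-7522623, plus strand): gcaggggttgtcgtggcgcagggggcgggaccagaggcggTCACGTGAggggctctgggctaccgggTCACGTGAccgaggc
In LAMP1 the 2 cores began 29 and 2 bases before the start, in GAA 77 and 32 bases, and in MCOLN1 42 and 15 bases. ATP6V0D1 had a single core 60 bases before the start, and in ATG3 the core began at base 5 of the transcribed sequence. The shorter E-box CACGTG, which lies within every CLEAR core, occurred in 7 of the 31 promoters (22.6%) and in 7.44% of all, the 2 further genes being ATG14 and NEU1. The core of the antioxidant response element recognised by NRF2, searched as TGACNNNGC on both strands, occurred in 5 of the 31 (ATP6V0D1, GAA, GLA, LAMP1 and MAP1LC3B; 16.1%) and in 13.6% of all promoters. A match describes the letters in these windows and shows no binding. Since many lysosome genes are bound at the CLEAR element, its larger share here could be foreseen from the choice of genes and tests nothing.

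All 38 genes passed the filter on low counts, as did 15142 of the 57905 genes. Levels were compared between genes as FPKM, as deposited, a level per library total and per deposited gene length. The order of genes therefore also depends on these lengths, which were for example 9731 bases for HEXA and 2065 for GLA. In vehicle, 32 of the 38 genes lay above 4.74 FPKM, the median of the genes tested. PSAP, the precursor of the saposins that activate sphingolipid hydrolases, had the highest level with 307.5 ± 41.2 FPKM (SD, n = 3). LAMP2, an abundant glycoprotein of the lysosomal membrane, followed with 69.3 ± 12.7 FPKM, and NPC2, the soluble lysosomal cholesterol carrier, with 59.6 ± 2.80. OPTN and SQSTM1, both receptors, measured 43.9 ± 1.13 and 36.9 ± 8.07 FPKM. At the low end stood TFEB with 1.93 ± 1.09, GABARAP with 2.64 ± 0.266 and ATG7 with 2.86 ± 0.566 FPKM. Of the 37 neighbouring pairs in the order of vehicle means, 34 overlapped in their 3 vehicle libraries. The exceptions were PSAP over LAMP2, NPC2 over OPTN, and ATG13 over ATP6V0D1, the 3 pairs whose vehicle ranges were separate.

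**Figure D1:**
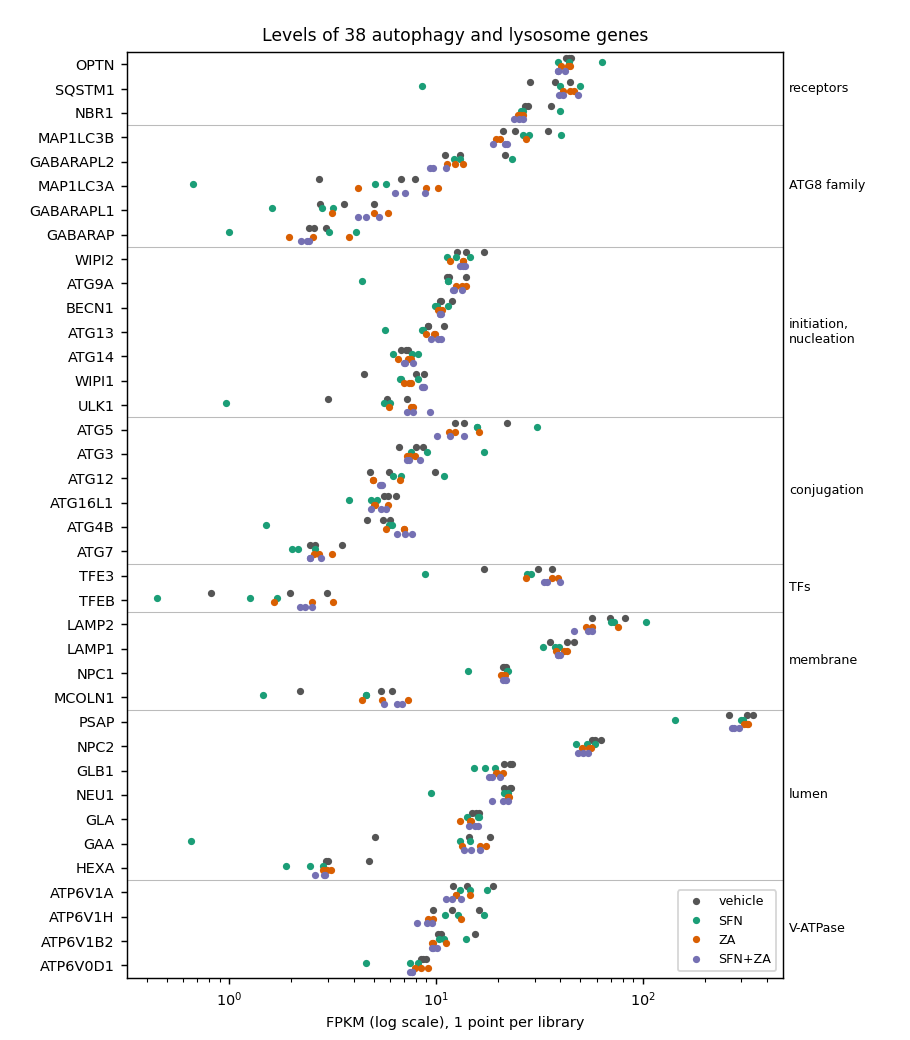
FPKM values (log scale) of the 38 genes, 1 point per library, coloured by group and ordered by role and by level. PSAP lies highest, and for GAA, ULK1, MAP1LC3A and SQSTM1 a single SFN library lies far to the left of the rest.

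Within roles the order was also wide. MAP1LC3B, the ATG8 protein most used as an autophagosome marker, measured 26.7 ± 7.15 FPKM and GABARAPL2 15.2 ± 5.54, against 5.82 ± 2.75 for MAP1LC3A and 3.80 ± 1.16 for GABARAPL1. TFE3 stood at 28.2 ± 9.97 FPKM, with all 3 vehicle libraries above the highest of the related TFEB. Among lumenal enzymes GLB1 measured 22.5 ± 1.03 and HEXA 3.56 ± 1.01 FPKM. Across all 12 libraries the coefficient of variation was taken on CPM, counts scaled to the library total. It was lowest in BECN1 (5.45%), GLA (5.86%) and NPC2 (7.65%) and highest in GAA (38.9%), TFEB (41.7%) and MAP1LC3A (43.7%). GABARAP, with 40 to 171 counts per library, MAP1LC3A, with 21 to 402, and TFEB, with 45 to 365, rested on few reads.

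Libraries totalled 15.3 to 25.4 M counts. SFN 2 and vehicle 2 stood apart: the first principal component, with 69.2% of the variance, placed them at 181 and 71.9, and the other 10 between -49.8 and -5.35. Their deviations from the median library followed the GC content of the transcript, with Spearman's rho across genes of -0.801 for SFN 2 and -0.601 for vehicle 2. For the other libraries rho had a lowest value of -0.468 (ZA 1) and a highest of 0.641 (SFN+ZA 1). SFN 1 and 3 gave -0.414 and -0.432, and the 3 SFN+ZA libraries were above 0. The GC trend therefore cannot be told apart from the difference between SFN and SFN+ZA, and its part in each result was not tested. Transcripts of the mitochondrial genome made up 0.775% of the counts in vehicle 2 and 1.605% in SFN 2. Their share was 0.775 to 3.27% in vehicle, 1.605 to 4.32% in SFN, 4.257 to 4.763% in ZA and 4.69 to 5.296% in SFN+ZA. All ZA and SFN+ZA libraries thus lay above all vehicle libraries, and the part of this share in the results was not tested. The mesenchymal markers VIM, CD44, AXL, FN1 and ZEB1 were present (VIM at 931 to 2198 CPM, counts per M (mega) of the scaled library total), while SPARC, also on the marker list, was near 0 at 0.507 to 1.30 CPM. ESR1 reached at most 0.1235 CPM and PGR and KRT5 were 0, with CDH1 at 0.711 to 2.93 and EPCAM at 15.1 to 42.7 CPM; the blood markers CD3E and HBB were 0 and PTPRC reached at most 0.397.

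The separation of SFN 2 was visible in the 38 genes. It was the lowest of the 12 libraries for 22 genes and the highest for 9. Vehicle 2 was the highest for 8, close to the 7 of vehicle 1, and SFN+ZA 1 was the lowest for 10. In SFN 2 the 19 genes of higher GC content had a median deviation of -1.24 (log2) from their own medians, 17 of them below 0, and the 19 genes of lower GC content had a median deviation of 0.39. The extremes there were GAA at -4.505 and ATG5 at 1.15. Of all counts, the 38 genes took 0.369% in SFN 2, against 0.425 to 0.470% elsewhere.

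**Figure D2:**
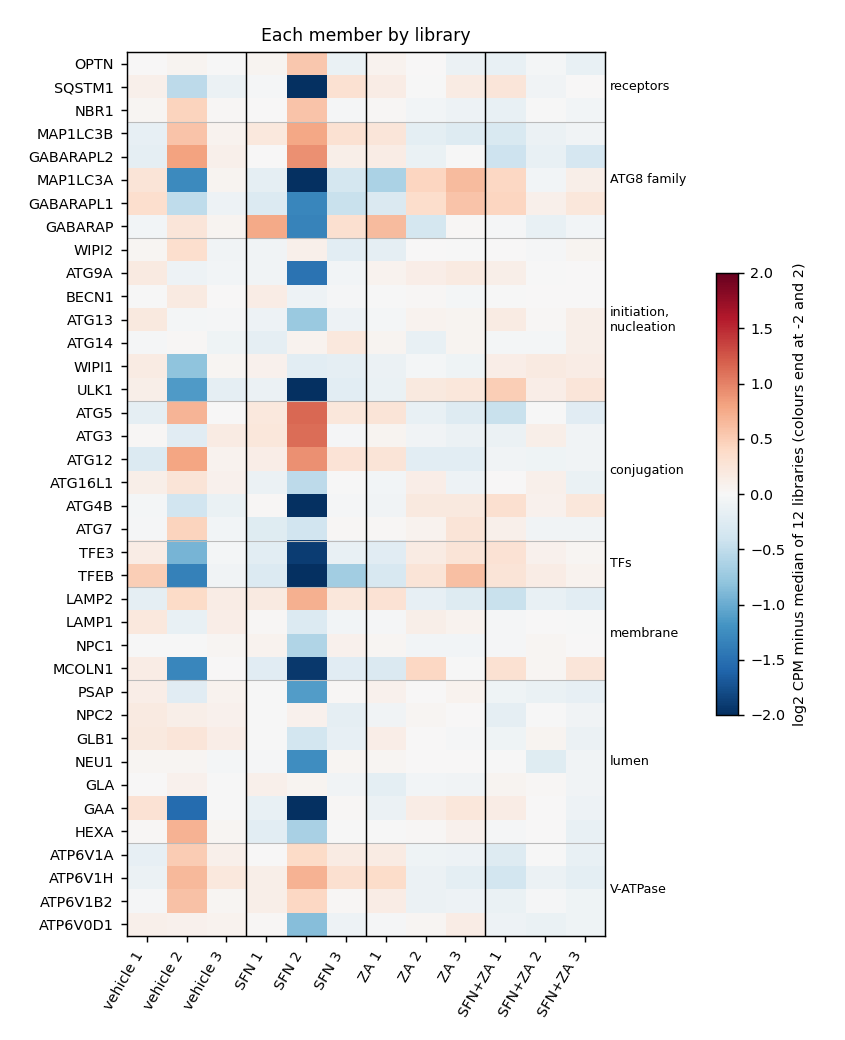
Deviation of each gene from its own median over the 12 libraries (log2 CPM, colours ending at -2 and 2), genes in rows by role and libraries in columns by group. The SFN 2 column is blue for 22 genes at their lowest and red for 9 at their highest.

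Among the autophagy receptors, SQSTM1, which delivers ubiquitinated cargo and is itself a target of NRF2, measured 344, 223 and 295 CPM in vehicle 1 to 3, 315, 66.3 and 395 in SFN, 355, 320.2 and 360.3 in ZA and 379, 307 and 322 in SFN+ZA. The SFN group held both the lowest and the highest library, and the groups overlapped in every comparison. NBR1, a receptor with a domain layout like that of SQSTM1, measured 235, 311 and 232 CPM in vehicle 1 to 3, 229.5, 339 and 224 in SFN, 231, 219 and 212 in ZA and 204.5, 226 and 218 in SFN+ZA. Its 3 ZA libraries and its 3 SFN+ZA libraries lay below all vehicle libraries. OPTN, a receptor for damaged mitochondria and bacteria, measured 226, 235 and 225 CPM in vehicle 1 to 3, 234, 326 and 206 in SFN, 236, 227 and 208 in ZA and 203, 220.0 and 203 in SFN+ZA. SFN 2 was the highest, and the vehicle libraries lay above those of SFN+ZA.

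In the ATG8 family, MAP1LC3B measured 112, 188 and 132 CPM in vehicle 1 to 3, 146, 215 and 155 in SFN, 149.7, 110.5 and 105 in ZA and 102, 117 and 120.4 in SFN+ZA. SFN 2 and vehicle 2 were the highest, and the SFN+ZA libraries lay below the SFN libraries and overlapped the vehicle libraries. GABARAPL2, which also works in Golgi transport, measured 33.6, 66.5 and 40.9 CPM in vehicle 1 to 3, 38.4, 71.5 and 41.2 in SFN, 42.3, 34.6 and 37.8 in ZA and 28.8, 34.5 and 30.1 in SFN+ZA. The SFN+ZA libraries lay below those of SFN and ZA, while vehicle 2 and SFN 2 were again the highest. GABARAPL1 measured 20.7, 11.4 and 15.2 CPM in vehicle 1 to 3, 13.5, 6.63 and 11.98 in SFN, 13.4, 20.8 and 24.3 in ZA and 22.1, 17.6 and 19.1 in SFN+ZA. Here the order was opposite, with SFN 2 lowest and all SFN+ZA libraries above the 3 SFN libraries. MAP1LC3A measured 14.1, 4.88 and 12.2 CPM in vehicle 1 to 3, 10.5, 1.19 and 9.30 in SFN, 7.64, 15.9 and 18.3 in ZA and 15.8, 11.4 and 12.8 in SFN+ZA. Again SFN+ZA lay above SFN in all libraries, and SFN 2 was far the lowest. GABARAP ranged from 2.27 CPM in SFN 2 to 9.69 in SFN 1, with overlap of the groups in every comparison.

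Of the initiation and nucleation factors, ULK1 is the kinase that starts autophagy, and it measured 55.7, 23.4 and 45.2 CPM in vehicle 1 to 3, 47.2, 7.37 and 44.5 in SFN, 47.01, 58.4 and 59.9 in ZA and 71.8, 56.3 and 60.4 in SFN+ZA. All SFN+ZA libraries lay above those of vehicle and SFN, with SFN 2 far below the rest. ATG13, the partner that holds the kinase complex together, measured 80.1, 68.2 and 69.0 CPM in vehicle 1 to 3, 64.99, 41.8 and 65.4 in SFN, 67.9, 73.6 and 72.3 in ZA and 78.7, 71.1 and 76.2 in SFN+ZA. Its SFN libraries lay below both the vehicle and the SFN+ZA libraries. ATG9A, the lipid scramblase of autophagosome seed vesicles, measured 115, 94.2 and 96.8 CPM in vehicle 1 to 3, 96.4, 36.1 and 96.8 in SFN, 106, 111 and 115 in ZA and 109.9, 99.97 and 102 in SFN+ZA. The 3 SFN+ZA libraries lay above the SFN libraries, with SFN 2 apart. WIPI1, which binds the phosphoinositide of the growing membrane, measured 30.1, 15.5 and 27.9 CPM in vehicle 1 to 3, 28.8, 23.3 and 23.8 in SFN, 24.8, 26.2 and 25.6 in ZA and 29.7, 30.4 and 29.8 in SFN+ZA. Vehicle 2 was the lowest, and SFN+ZA lay above SFN and ZA in all libraries. BECN1 ranged from 51.5 to 62.4 CPM, its partner ATG14 from 32.6 to 42.8 and WIPI2 from 106 to 156, with overlap in every comparison.

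Among the conjugation factors, ATG5 measured 48.7, 87.98 and 55.2 CPM in vehicle 1 to 3, 63.9, 122 and 64.2 in SFN, 65.99, 49.5 and 45.96 in ZA and 40.4, 54.9 and 46.9 in SFN+ZA. SFN 2 was the highest and vehicle 2 next, and the SFN+ZA libraries lay below the SFN libraries. ATG12, the ubiquitin-like partner of ATG5, measured 42.8, 89.4 and 54.2 CPM in vehicle 1 to 3, 56.9, 97.9 and 62.5 in SFN, 62.04, 44.8 and 44.6 in ZA and 49.3, 48.6 and 49.5 in SFN+ZA. Its libraries were arranged in the same way. ATG16L1, which directs the complex to the membrane, measured 35.7, 39.4 and 34.98 CPM in vehicle 1 to 3, 30.5, 23.1 and 32.7 in SFN, 31.9, 36.2 and 30.7 in ZA and 33.3, 35.4 and 30.1 in SFN+ZA. Its SFN libraries lay below the vehicle libraries, and SFN 2 was the lowest. ATG4B, the protease that processes ATG8 proteins, measured 40.2, 31.6 and 37.7 CPM in vehicle 1 to 3, 41.9, 10.03 and 40.7 in SFN, 39.4, 47.3 and 47.1 in ZA and 51.8, 44.02 and 48.2 in SFN+ZA. The SFN+ZA libraries lay above the vehicle and SFN libraries and overlapped the ZA libraries. ATG3, the E2-like enzyme, ranged from 41.5 CPM in vehicle 2 to 106 in SFN 2, and ATG7, the E1-like enzyme, from 17.9 in SFN 2 to 31.6 in vehicle 2, both with overlap in every comparison.

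Both transcription factors showed wide spread. TFEB measured 16.99, 4.72 and 11.5 CPM in vehicle 1 to 3, 10.01, 2.55 and 7.42 in SFN, 9.67, 14.5 and 18.2 in ZA and 14.5, 13.4 and 12.7 in SFN+ZA. TFE3 measured 156, 74.3 and 137 CPM in vehicle 1 to 3, 123, 37.9 and 128 in SFN, 121, 158 and 169 in ZA and 172, 150.3 and 146 in SFN+ZA. In each, SFN 2 was the lowest and vehicle 2 the next lowest, the SFN+ZA libraries lay above the SFN libraries, and no treated group was separated from vehicle.

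Among the lysosomal membrane proteins, LAMP2 measured 319.7, 469.7 and 400.4 CPM in vehicle 1 to 3, 407, 587 and 421.5 in SFN, 441, 323 and 303 in ZA and 265, 325 and 312 in SFN+ZA (ENSG00000005893, GRCh37/hg19 chromosome X, 119561682 to 119603220, minus strand). The SFN+ZA libraries lay below the SFN libraries, and SFN 2 was the highest of all. MCOLN1, the calcium channel of the lysosome, measured 24.4, 8.93 and 22.1 CPM in vehicle 1 to 3, 18.8, 5.78 and 18.8 in SFN, 18.04, 29.3 and 22.1 in ZA and 27.4, 22.7 and 26.1 in SFN+ZA. SFN 2 and vehicle 2 were the lowest, and the SFN+ZA libraries lay above the SFN libraries. LAMP1, the companion of LAMP2, ranged from 191 CPM in SFN 2 to 269 in vehicle 1, and NPC1, the membrane cholesterol transporter, from 145 in SFN 2 to 234 in SFN 3. Neither was separated in any comparison.

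Of the lumenal proteins, GLB1, the lysosomal beta-galactosidase (ENSG00000170266, chromosome 3, 33038100 to 33138722, minus strand), measured 100.4, 104 and 95.8 CPM in vehicle 1 to 3, 87.3, 67.5 and 78.3 in SFN, 95.7, 87.4 and 85.97 in ZA and 82.5, 90.5 and 80.8 in SFN+ZA. All 9 treated libraries lay below the 3 vehicle libraries, in the case of ZA 1 by only 95.73 against 95.75 CPM in vehicle 3. HEXA, the alpha subunit of beta-hexosaminidase (ENSG00000213614, chromosome 15, 72635775 to 72668817, minus strand), measured 29.4, 46.9 and 29.5 CPM in vehicle 1 to 3, 24.8, 18.4 and 28.6 in SFN, 28.6, 29.4 and 30.8 in ZA and 28.5, 29.02 and 25.9 in SFN+ZA. Its SFN and SFN+ZA libraries lay below the vehicle libraries, and vehicle 2 was the highest of all. NPC2 measured 173, 165 and 161.5 CPM in vehicle 1 to 3, 153, 163 and 135 in SFN, 145, 157 and 153 in ZA and 135, 152 and 145 in SFN+ZA. The ZA and SFN+ZA libraries lay below the vehicle libraries, whereas SFN 2 overlapped them. GLA, the lysosomal alpha-galactosidase, measured 32.3, 34.02 and 31.8 CPM in vehicle 1 to 3, 34.5, 33.2 and 30.3 in SFN, 27.98, 30.9 and 30.5 in ZA and 33.3, 32.7 and 30.5 in SFN+ZA. The ZA libraries lay below vehicle by a small margin. PSAP measured 1106, 859.5 and 1059 CPM in vehicle 1 to 3, 998, 464 and 1019 in SFN, 1064, 1010 and 1054 in ZA and 950.0, 913 and 895 in SFN+ZA (ENSG00000197746, chromosome 10, 73576055 to 73611126, minus strand). The SFN+ZA libraries lay below the ZA libraries, and SFN 2 was far the lowest. NEU1, the lysosomal sialidase, measured 112.3, 112.0 and 105.9 CPM in vehicle 1 to 3, 107.1, 46.14 and 111.5 in SFN, 112.0, 109.9 and 109.1 in ZA and 109.0, 92.35 and 103.6 in SFN+ZA. Its SFN+ZA libraries lay just below the ZA libraries. GAA, the acid alpha-glucosidase that breaks down glycogen, measured 94.4, 26.6 and 77.0 CPM in vehicle 1 to 3, 69.8, 3.40 and 78.5 in SFN, 71.5, 85.6 and 90.8 in ZA and 85.8, 77.5 and 71.7 in SFN+ZA. SFN 2 and vehicle 2 were the lowest, and the groups overlapped in every comparison.

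The V-ATPase acidifies the lysosome, and 4 of its subunits were among the genes. ATP6V1A, the catalytic subunit, measured 62.35, 99.15 and 74.85 CPM in vehicle 1 to 3, 69.51, 91.03 and 78.02 in SFN, 77.53, 65.42 and 64.66 in ZA and 57.92, 69.46 and 62.51 in SFN+ZA. The SFN+ZA libraries lay, by a small margin, below the SFN libraries. ATP6V1B2, its non-catalytic partner, measured 80.8, 123.5 and 84.8 CPM in vehicle 1 to 3, 88.96, 109.5 and 83.6 in SFN, 90.8, 76.01 and 76.6 in ZA and 75.4, 80.9 and 77.2 in SFN+ZA. The same groups were separated. ATP6V1H, a regulatory subunit, measured 49.8, 84.3 and 62.4 CPM in vehicle 1 to 3, 58.3, 87.9 and 67.6 in SFN, 69.6, 50.03 and 47.2 in ZA and 41.8, 49.9 and 46.9 in SFN+ZA. Again the SFN+ZA libraries lay below the SFN libraries, with SFN 2 and vehicle 2 the highest. ATP6V0D1, part of the membrane sector, measured 73.7, 72.9 and 71.7 CPM in vehicle 1 to 3, 70.03, 37.98 and 63.7 in SFN, 67.3, 70.4 and 75.95 in ZA and 63.8, 62.8 and 64.4 in SFN+ZA. Its SFN and SFN+ZA libraries lay below vehicle, and SFN+ZA also below ZA.

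**Figure D3:**
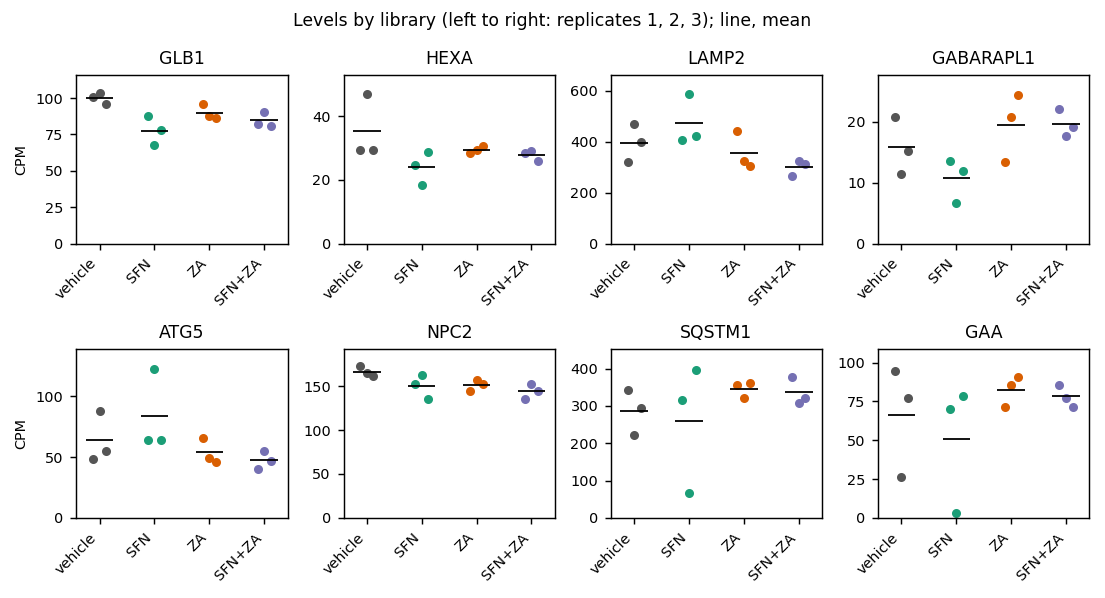
CPM of 8 of the genes, 1 point per library, replicates 1, 2 and 3 from left to right in each group and a line at the group mean. GLB1 lies below vehicle in all 9 treated libraries, ZA 1 (95.73 CPM) almost level with vehicle 3 (95.75 CPM), whereas for SQSTM1, GAA and ATG5 the middle SFN point, SFN 2, lies far from SFN 1 and 3.

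SFN was compared with vehicle for its effect on its own. The beta-galactosidase gene GLB1 and the hexosaminidase gene HEXA had the lowest p-values, with log2 fold changes of -0.36 ± 0.13 and -0.56 ± 0.22 (SE). None of the 38 genes passed an adjusted p under 0.05 in edgeR's quasi-likelihood test, and the lowest adjusted p was 0.728. The test called 0% of all genes. An unadjusted p under 0.05 was reached by 2 of the 38 genes, GLB1 and HEXA, against 4.97% of all genes tested. The SFN libraries lay wholly below vehicle for 5 of 38, against 3.48% of all genes, and wholly above for 0 of 38, against 4.4%. The 5 were GLB1, HEXA, ATG16L1 (-0.35 ± 0.16), ATG13 (-0.34 ± 0.17) and ATP6V0D1 (-0.35 ± 0.19). In all 5, SFN 2 was the lowest of the 12 libraries.

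By role, all 7 lumenal protein genes had log2 fold changes below 0 with SFN, from -0.56 in HEXA to -0.0013 in GLA, with a median of -0.32, whereas 6 of 7 were below 0 with a GC offset and 3 of 7 with the offset and without vehicle 2 and SFN 2. TFEB stood at -0.73 ± 0.51 and TFE3 at -0.35 ± 0.40, and with the GC offset at -0.36 ± 0.26 and 0.07 ± 0.08. Initiation factors had 5 of 7 below 0, 4 of 7 with the offset and 3 of 7 with the offset and without vehicle 2 and SFN 2, and conjugation factors 3 of 6, where ATG3 had the highest value of all, 0.54 ± 0.25. SQSTM1 had a log2 fold change of -0.15 ± 0.47 with a 95% interval from -1.18 to 0.88. The median of the 38 was -0.16, with 25 below 0, against -0.0094 for all genes tested. Without vehicle 2 and SFN 2 the median of the 38 was -0.06 with 22 below 0, and with a GC offset as well it was -0.01 with 20 below 0. In that fit GLB1 stood at -0.17 ± 0.10, NPC2 at -0.29 ± 0.09, ATG4B at 0.28 ± 0.09, TFEB at -0.54 ± 0.20 and SQSTM1 at 0.32 ± 0.13. There 5 of the 38 had an unadjusted p under 0.05 in edgeR's test, against 11.5% of all genes, and the lowest adjusted p was 0.270.

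For ZA on its own, the comparison was again with vehicle. The lowest p-values belonged to the V-ATPase subunit ATP6V1B2 (-0.25 ± 0.18), the receptor NBR1 (-0.23 ± 0.18) and GLB1 (-0.16 ± 0.13). Again none of the 38 passed in edgeR's test, with a lowest adjusted p of 0.980, and 0% of all genes were called. No member reached an unadjusted p under 0.05, against 1.14% of all genes. ZA lay wholly below vehicle for 4 of 38, NBR1, GLB1, NPC2 (-0.14 ± 0.12) and GLA (-0.13 ± 0.12), against 3.05% of all genes, and wholly above for none, against 4.48%. Log2 fold changes ran from -0.30 in ATG12 to 0.42 in MAP1LC3A. Both transcription factors were above 0 and all 4 V-ATPase subunits below 0, but with the offset and without vehicle 2 and SFN 2 these counts were 0 of 2 and 2 of 4. The median of the 38 was -0.03, against 0.0041 for all genes.

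Both agents together were compared with vehicle next. The lowest p-values were those of ATP6V1H (-0.50 ± 0.23), GABARAPL2 (-0.595 ± 0.28) and LAMP2 (-0.40 ± 0.21), whose groups overlapped. Neither these nor any of the other genes passed, with a lowest adjusted p of 0.861 in edgeR's test and 0% of all genes called. An unadjusted p under 0.05 was found for 0 of the 38 and for 4.91% of all genes. SFN+ZA lay wholly below vehicle for 6 of 38, against 9.63% of all genes. These were NBR1 (-0.26 ± 0.18), OPTN (-0.13 ± 0.16), GLB1 (-0.24 ± 0.13), HEXA (-0.34 ± 0.22), NPC2 (-0.21 ± 0.12) and ATP6V0D1 (-0.19 ± 0.19). It lay wholly above for 2 of 38, ULK1 (0.60 ± 0.53) and ATG4B (0.39 ± 0.40), against 11.5% of all genes.

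Across roles, all 4 V-ATPase subunits were below 0 with SFN+ZA (median -0.31). Of 16 further V-ATPase genes tested, 9 were below 0 and 7 above (median -0.06). The 4 subunits were also below 0 with a GC offset (-0.31), without vehicle 2 and SFN 2 (-0.17) and with both steps (-0.16). Lumenal protein genes had 6 of 7 below 0, and 7, 7 and 6 of 7 in those fits, with medians between -0.19 and -0.13 in all 4. Conjugation factors had 5 of 6 below 0 and 3 of 6 with both steps. Initiation factors had 5 of 7 above 0 and 4 of 7 in each of those fits, and both transcription factors were above 0 but 1 of 2 with both steps. The median of the 38 genes was -0.11, with 24 below 0, against 0.0113 for all genes. With a GC offset 29 of 38 were below 0, against 51.0% of all genes, and the median was -0.13. With the offset and without vehicle 2 and SFN 2, 26 of 38 were below 0 with a median of -0.07, and 10 of 38 had an unadjusted p under 0.05, against 18.2% of all genes. In that fit PSAP stood at -0.28 ± 0.07, LAMP1 at -0.19 ± 0.06, LAMP2 at -0.20 ± 0.06, ATP6V0D1 at -0.26 ± 0.08, GLB1 at -0.23 ± 0.09 and GAA at -0.23 ± 0.08, and ULK1 at 0.21 ± 0.07. PSAP had the lowest adjusted p of any of the 38 in any fit made, 0.0523 (edgeR), and none was called. The 3 comparisons with vehicle share the same 3 vehicle libraries, so their values are not independent.

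**Figure D4:**
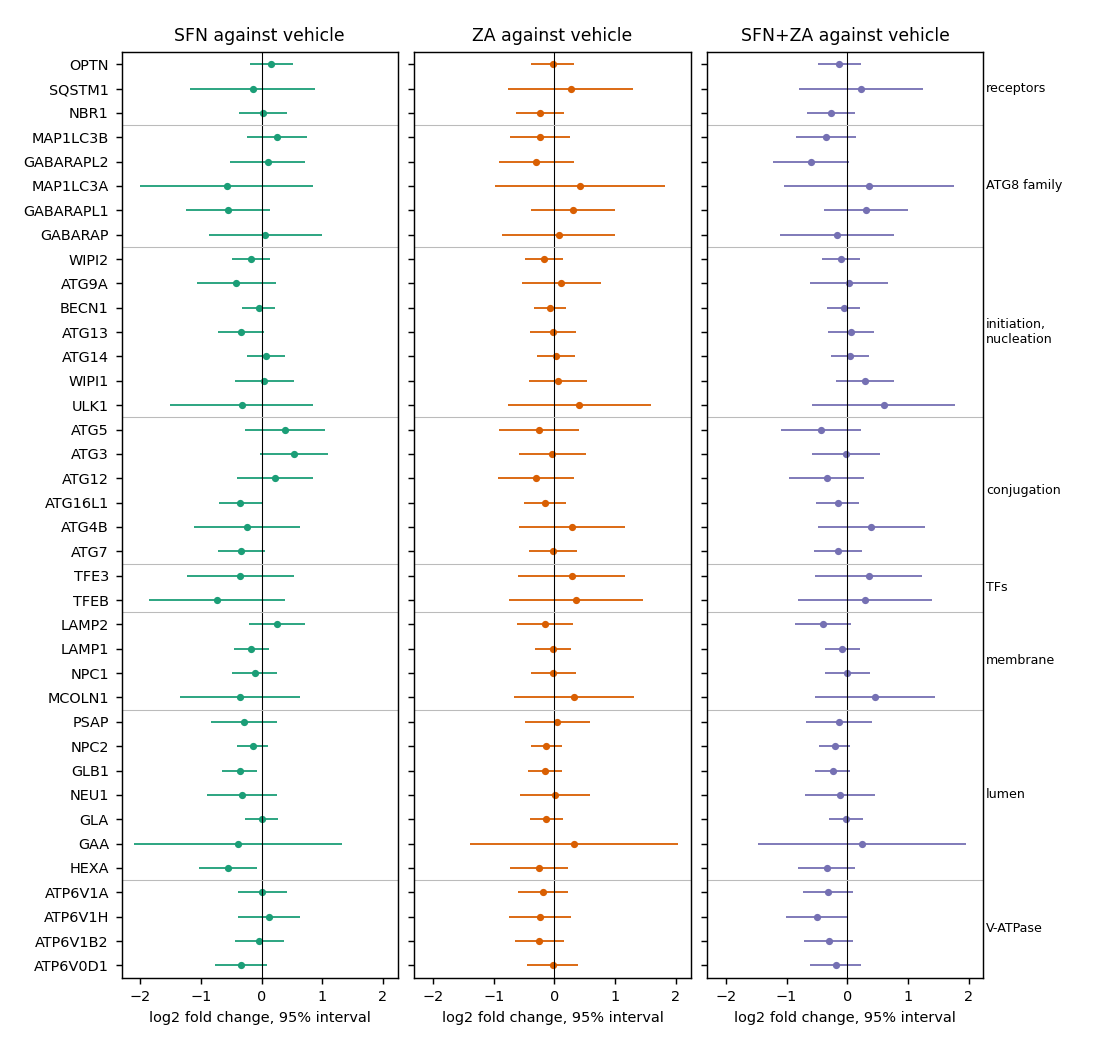
Log2 fold changes of the 38 genes against vehicle with 95% intervals (points and lines, edgeR), by role, in 3 panels. Intervals are wide for GAA, MAP1LC3A and ULK1, and only those of GLB1 and HEXA with SFN exclude 0.

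SFN+ZA against SFN asks what ZA adds in the presence of SFN. The genes with the lowest p-values were LAMP2 (-0.65 ± 0.21), GABARAPL1 (0.87 ± 0.32) and ATG5 (-0.82 ± 0.30). None passed in edgeR's test, which called 0% of all genes, and the lowest adjusted p was 0.223. An unadjusted p under 0.05 was reached by 7 of 38 (18.4%), against 21.9% of all genes. SFN+ZA lay wholly above SFN for 10 of 38 (26.3%), against 23.4% of all genes, and wholly below for 8 of 38 (21.1%), against 23.7%. These shares were close to those of all genes.

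The 8 genes that lay below were LAMP2, ATG5, ATP6V1H (-0.625 ± 0.23), MAP1LC3B (-0.60 ± 0.23), GABARAPL2 (-0.695 ± 0.28), ATG12 (-0.56 ± 0.28), ATP6V1A (-0.33 ± 0.19) and ATP6V1B2 (-0.27 ± 0.18). The 10 that lay above were GABARAPL1, ATG13 (0.39 ± 0.17), TFEB (1.02 ± 0.51), MCOLN1 (0.81 ± 0.45), TFE3 (0.70 ± 0.40), ULK1 (0.93 ± 0.54), ATG4B (0.64 ± 0.40), ATG9A (0.44 ± 0.29), MAP1LC3A (0.93 ± 0.65) and WIPI1 (0.25 ± 0.22). The ATG8 family thus held members at both ends, with MAP1LC3B and GABARAPL2 below 0 and GABARAPL1 and MAP1LC3A above 0. The median of the 38 was 0.12, against 0.0454 for all genes, and it was -0.02 without vehicle 2 and SFN 2. GABARAPL1 stood at 0.89 ± 0.31 with a GC offset and 0.63 ± 0.24 with the offset and without those libraries. With the offset ULK1 stood at 0.05 ± 0.09 and MCOLN1 at -0.09 ± 0.20. Of the 38 values, 17 had another sign with the offset than without it. In that fit 1 of the 2 transcription factors was above 0, and 2 of the 4 V-ATPase subunits were below 0.

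Values differed less between SFN+ZA and ZA, the comparison of what SFN adds to ZA. The lowest p-values were those of LAMP2 (-0.24 ± 0.21), ATP6V1H (-0.27 ± 0.23) and WIPI1 (0.23 ± 0.22). No gene of the 38 passed in edgeR's test (lowest adjusted p 1.0), 0% of all genes were called, and 0 of 38 reached an unadjusted p under 0.05, against 1.05% of all genes. SFN+ZA lay wholly below ZA for GABARAPL2 (-0.30 ± 0.28), ATP6V0D1 (-0.16 ± 0.19), PSAP (-0.18 ± 0.25) and NEU1 (-0.12 ± 0.26), 4 of 38 against 5.77% of all genes. It lay wholly above for WIPI1, 1 of 38 against 6.99%. The median of the 38 was -0.06, with 24 below 0, against -0.0021 for all genes. With a GC offset and without vehicle 2 and SFN 2 the median was -0.08, again with 24 below 0. There 8 of 38 had an unadjusted p under 0.05 in edgeR's test, against 11.5% of all genes. The lowest adjusted p of the 38 in that fit was 0.208, and none was called.

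The interaction asks whether the effect of the pair differs from the sum of both single effects (log2). It was called for 0 of the 38 genes in edgeR's test, with a lowest adjusted p of 0.901, and for 0% of all genes. The lowest p-values belonged to ATG13 (0.41 ± 0.24), LAMP2 (-0.49 ± 0.29) and ATG16L1 (0.35 ± 0.23). An unadjusted p under 0.05 was reached by 0 of 38, against 1.7% of all genes. The median was 0.13 with all libraries and 0.0034 without vehicle 2 and SFN 2. Across the 38 genes the interaction followed GC content, with Spearman's rho of 0.723 and of -0.171 with a GC offset.

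GC content and log2 fold change moved together across the 38 genes, which are not independent and share the same libraries. Spearman's rho over the 38 was -0.706 for SFN against vehicle, 0.747 for ZA against vehicle, 0.673 for SFN+ZA against vehicle and 0.805 for SFN+ZA against SFN. It was 0.267 for SFN+ZA against ZA and 0.723 for the interaction. With SFN, 18 of the 19 genes above the median GC content of 50.1% had values below 0, against 7 of the 19 at lower GC content. In SFN+ZA against SFN the same sets of genes had 1 of 19 and 15 of 19 below 0, with medians of 0.38 and -0.27. With a GC offset fitted over all genes, rho was 0.15 for SFN against vehicle and -0.074 for SFN+ZA against SFN, and across the other 4 comparisons it ran from -0.171 to 0.071. The offset was fitted on the same GC content with the 38 genes included, so values nearer 0 follow from the fit and test nothing.

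**Figure D5:**
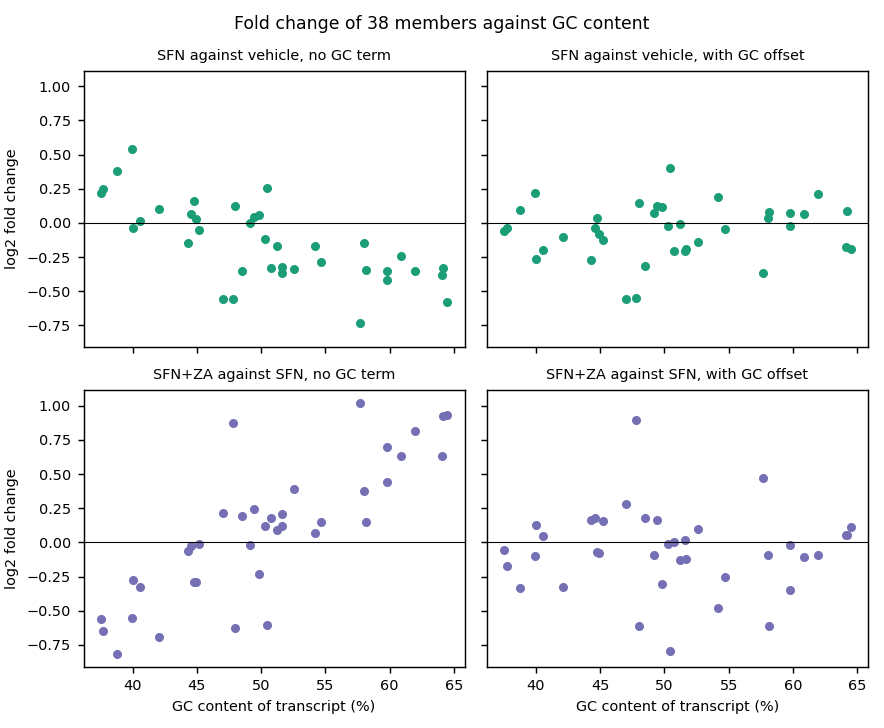
Log2 fold change of each of the 38 genes against the GC content of its transcript (%), for SFN against vehicle (top) and SFN+ZA against SFN (bottom), without (left) and with (right) a GC offset. The slopes of the left panels, with rho of -0.706 and 0.805 over the 38 genes, are absent on the right, where rho is 0.15 and -0.074. The offset was fitted on GC content, so their loss follows from the fit.

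Further genes of the pathway were taken from 8 lists of autophagy and lysosome genes, of which 137 were tested. None was called in any comparison with all 12 libraries. Unadjusted p-values under 0.05 were found for 6 of 137 with SFN, 2 with ZA, 10 with SFN+ZA against vehicle and 31 with SFN+ZA against SFN. Of all genes tested these comparisons had 4.97, 1.14, 4.91 and 21.9%. For SFN+ZA against ZA and the interaction the count was 0 of 137, against 1.05 and 1.7% of all genes. With SFN the lowest p-values were those of GUSB, the lysosomal beta-glucuronidase (-0.28 ± 0.12), and CTSB, the cathepsin B protease (-0.31 ± 0.13). With ZA they were those of UVRAG, a partner of BECN1 (-0.38 ± 0.16), and FNIP2, a partner of folliculin (-0.63 ± 0.26). With SFN+ZA against vehicle they were those of the V-ATPase genes ATP6V0E1 (-0.62 ± 0.21) and ATP6AP2 (-0.48 ± 0.18). Of the 16 V-ATPase genes on their list, 9 were below 0 and 7 above in that comparison. Against SFN the lowest p-values were those of OSTM1, a subunit of a lysosomal chloride transporter (-0.69 ± 0.21), and RB1CC1, the scaffold of the ULK1 complex (-0.64 ± 0.20). Against ZA they were those of the transcription factor MITF (-0.37 ± 0.21) and the protease CTSK (0.46 ± 0.26). For the interaction they were those of OSTM1 (-0.55 ± 0.29) and the receptor TAX1BP1 (-0.53 ± 0.29).

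A fit without vehicle 2 and SFN 2 and with a GC offset called 6 of these 137 genes for SFN+ZA against vehicle, 1 above and 5 below, which were picked out after their values were seen. Of the 15353 genes tested in that fit 2.96% were called, 350 above (2.28%) and 104 below (0.677%). ATG16L2, a relative of ATG16L1, measured 23.6, 13.0 and 16.8 CPM in vehicle 1, 2 and 3, and 46.4, 35.7 and 34.3 in SFN+ZA 1, 2 and 3. The 3 SFN+ZA libraries lay above the vehicle libraries, and its log2 fold change was 0.87 ± 0.12 (edgeR adjusted p = 0.000791) in that fit and 1.13 with all libraries, where it was not called. Its count is uncertain, because it overlaps FCHSD2 and no strand setting was given. The 5 below were CTSF (-0.35 ± 0.07), CTSB (-0.26 ± 0.06), PPT1 (-0.30 ± 0.07), SMPD1 (-0.31 ± 0.08) and ATP6V0E1 (-0.34 ± 0.09), all lysosomal enzymes but the last, with edgeR adjusted p from 0.0139 to 0.0497. With all libraries CTSF stood at -0.00079 and SMPD1 at -0.08, and the other 3 between -0.62 and -0.28. The 38 genes had 0 calls in the same fit.

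In the authors' deposited table, which used its own test, 0 of the 38 genes had an adjusted p under 0.05 in the 5 pairs of groups compared here. The deposited pair of ZA against SFN was not used. The lowest adjusted values were 0.9955 for SFN and 0.994 for ZA against vehicle. They were 0.556 for SFN+ZA against vehicle, 0.458 against SFN and 0.9998 against ZA in the authors' deposited table. Counts of 11 of the 38 genes are uncertain, because another gene with at least 10% of their counts overlaps them and no strand setting is stated. These are ATG12, ATG3, ATG4B, ATG7, BECN1, MAP1LC3B, MCOLN1, NPC1, NPC2, OPTN and SQSTM1. For MCOLN1 the overlapping gene, PNPLA6, lies on the same strand, so a strand setting would not separate their counts. In these bulk libraries fewer cells of one kind and less RNA per cell cannot be told apart.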

How the data were processed

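The 38 genes and all lists were chosen with earlier results of these data known. The authors deposited a table of raw counts, FPKM, gene lengths, mean values per group, log2 fold changes and p-values with adjusted p-values for pairs of groups. Per the submitters' processing notes, reads were aligned with HISAT2 (no version) to GRCh37/hg19. Counting tool, strand setting and annotation release are not given in the sources used here. Adjusted p-values of the authors were copied except for ZA against SFN. The authors' group means and log2 fold changes were not used, and 0 per-sample columns lacked a sample. Genes were joined by Ensembl identifier, because 2267 genes share their name with another.

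Deposited counts of all 12 libraries were fitted with edgeR 4.0.16 in R 4.3.3: filterByExpr, TMM scaling, 1 mean per group, robust quasi-likelihood F test (two-sided) and Benjamini-Hochberg adjustment over 15142 genes, called at an adjusted p under 0.05. Standard errors are log2 fold changes over the root of F, and 95% intervals use the moderated degrees of freedom. CPM used TMM-scaled totals. Values after ± are the SD for FPKM and the SE for log2 fold changes. The GC offset was a loess curve (span 0.5) of each library's log2 CPM deviation on the GC content of the longest GENCODE transcript, known for 97.4% of the genes tested and all 38 members. Alternatives were DESeq2 1.42.0 (size factors, Wald test), other filters, the compared groups alone, a replicate block, the GC offset, leaving out vehicle 2 and SFN 2, and leaving out each library. The labels give only shared replicate numbers. Deviations from the group means correlated at 0.592, 0.627 and 0.264 between vehicle and SFN libraries of the same number. Vehicle 3 correlated more with SFN 1 (0.358), and SFN 3 more with vehicle 1 (0.500), so pairing by number was not shown. For any other 2 groups at least 1 same-number pair was under 0.1. Totals of 15.3 to 25.4 M counts set the counting precision, and PCR duplicates were not marked by molecular identifiers in the deposited counts.

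All 38 genes are named. In each comparison the text describes the 3 with the lowest unadjusted p and those whose groups were separate in CPM, and from the further lists the 2 with the lowest unadjusted p; other named genes were chosen after their values were seen.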

Additional observations from a re-analysis of the deposited data

How the results depend on the processing

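None of the 38 genes was called in any comparison under any of the 22 alternatives. The median log2 fold change of the 38 for SFN against vehicle was -0.0383 with a GC offset and -0.0114 with the offset and without vehicle 2 and SFN 2, and leaving out 1 library gave -0.2694 to -0.0704. For SFN+ZA against SFN it was -0.061 with the offset, -0.0196 without vehicle 2 and SFN 2 and -0.0032 with both steps, and leaving out 1 library gave -0.0197 (without SFN 2) to 0.2084. The interaction median was 0.0034 without vehicle 2 and SFN 2, and leaving out 1 library gave 0.0111 to 0.2338. The cause was not tested. Other medians ran from -0.0637 to -0.0103 for ZA against vehicle, -0.1328 to -0.0843 for SFN+ZA against vehicle and -0.0741 to -0.0455 against ZA when 1 library was left out. Of the 228 values of single genes, none of them called, 63 had another sign with the offset, 42 without vehicle 2 and SFN 2, 76 with both steps and 2 with the DESeq2 Wald test. Over all genes tested, the fit with both steps called 5 with SFN, 18 with ZA, 454 with SFN+ZA against vehicle, 34 against SFN and 10 against ZA. For SFN+ZA against vehicle 21 were called by the DESeq2 Wald test, 52 without vehicle 2 and SFN 2, 2 with the offset, and 0 to 19 when 1 library was left out (19 without SFN 2). For SFN+ZA against SFN the DESeq2 Wald test called 6.

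Replicate numbers were not shown to pair the libraries. Over all 18 pairs with the same number the correlation of deviations ran from -0.499 to 0.627 (median 0.032). Of the 12 libraries, 6 correlated best with their own number. With the replicate number as a block 0 genes were called, so it changed no call, and the medians of the 38 were -0.1698 for SFN, -0.0279 for ZA and -0.1048 for SFN+ZA against vehicle, 0.1312 for SFN+ZA against SFN, -0.0698 against ZA and 0.1614 for the interaction. The block with the GC offset gave -0.0576 for SFN+ZA against SFN. Low counts limit GABARAP, MAP1LC3A and TFEB.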
